A study of Arabidopsis thaliana with 6 samples.

Results

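The cysteine-rich receptor-like kinases (CRKs) of *Arabidopsis thaliana* are plasma membrane receptors with an extracellular region of DUF26 domains, a transmembrane segment and an intracellular serine/threonine kinase domain. The genes described here are *CRK1* to *CRK42*, chosen by their identifiers, and make up 42 of the 37184 identifiers counted in the series. All 42 were present in every count table, and 40 had a count in at least 1 library. With edgeR, the main tool, 35 passed the filter on low counts and could be tested. The other 7 were *CRK1* and *CRK33*, which had no count in any library, and *CRK8*, *CRK23*, *CRK32*, *CRK38* and *CRK39*, whose counts were too low.

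RNA-seq was performed on whole 14-day-old seedlings of *nol12-4* and of wild type (WT), both in the Col-0 background. *nol12-4* (GK-536B01) carries a T-DNA insertion in *AtNOL12*, which encodes a nucleolar protein needed for processing of large-subunit rRNA precursors, and it is the only allele in these libraries. Seedlings of both genotypes were grown without treatment on MS medium under long days, and 3 biological replicates per genotype were sequenced. How many seedlings made up a replicate is not given in the sources used here. In RNA of whole seedlings, fewer cells of a type and less RNA per cell cannot be told apart.

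CRKs are best known from plant immunity and from signaling by reactive oxygen species. Transcripts of many of them accumulate after contact with bacteria, bacterial peptides or salicylic acid, and several of the proteins bind pattern recognition receptors or phosphorylate the NADPH oxidase RBOHD. A large share of the family lies in a single tandem array on chromosome 4, where repeated duplication has left closely related copies side by side. In the RefSeq annotation of TAIR10.1 this array, *CRK5* to *CRK24*, spans 74214 bases (chr4:12117491-12191704), with 9 genes on the plus strand, 11 on the minus strand and 3 other annotated genes between them. Of the 22 members outside it, 15 lie in smaller runs and 7 stand alone.

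The libraries held 56627497 to 74162060 counts on genes in *nol12-4* and 67444306 to 75001252 in WT. Levels are given as CPM, counts relative to the size of a library, which was adjusted by TMM factors. The limit that a count of 0 sets, 3 counts, was 0.0388 to 0.0513 CPM depending on the library and covers counting error only. *AtNOL12* itself had 1186, 770 and 2142 counts in *nol12-4* and 663, 642 and 894 counts in WT. Its estimate was above 0 (0.82 on the log2 scale, edgeR adjusted p = 0.191), the opposite of what loss of the transcript would give. A gene count sums all exons and does not separate the sides of an insertion, so the labels were not checked by it, and *nol12-4* here means the libraries labelled so. All 6 leaf photosynthesis markers were detected in every library, with a summed level of 10300 to 16600 CPM in *nol12-4* and 6190 to 10800 CPM in WT. These ranges overlapped. Relative to the WT mean, their median log2 CPM in replicates 1, 2 and 3 was 0.62, 1.12 and 0.43 in *nol12-4* and −0.29, −0.21 and 0.50 in WT. The 8 root markers summed to 19.0 to 27.2 CPM in *nol12-4* and 9.56 to 11.9 CPM in WT, and of them *NRT2.1* was at 0 in at least 1 library. The root sum thus did not overlap between genotypes, and its part in the CRK values was not tested.

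Transcripts of the family were mostly less abundant in *nol12-4* than in WT. Of the 35 members tested, 31 had an estimate below 0, against 51% of all genes tested, and the median log2 fold change was −0.57 over the members and −0.0091 over all genes. No single member passed edgeR's quasi-likelihood test after Benjamini-Hochberg adjustment over the 21705 genes tested, with 0 lower members (0.0691% of all genes) and 0 higher members (0.226% of all genes). At an unadjusted p under 0.05, edgeR gave 14 lower members, or 40% of those tested (7.91% of all genes), and 1 higher member (12.1% of all genes). DESeq2, run on the same counts, called 11 of the 40 members to which it gave an adjusted p lower (3.21% of all genes) and 1 higher (6.2% of all genes). The lower ones were *CRK3*, *CRK5*, *CRK7*, *CRK9*, *CRK11*, *CRK13*, *CRK14*, *CRK19*, *CRK20*, *CRK28* and *CRK29*, and the higher one was *CRK42*. For 12 tested members all 3 *nol12-4* libraries lay below all 3 WT libraries (11.6% of all genes), and for *CRK42* alone they lay above them (14.5% of all genes).

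The CPM of all 42 members summed to 373, 333 and 350 in *nol12-4* (replicates 1, 2 and 3 in this order throughout), against 552, 507 and 415 in WT. The sum was lower in each *nol12-4* library than in any WT library, although WT replicate 3 was much closer to *nol12-4* than the other WT libraries were. The tandem array summed to 198, 170 and 184 CPM in *nol12-4* and 307, 291 and 191 CPM in WT, so that WT replicate 3 fell inside the *nol12-4* range. The members outside the array summed to 174, 163 and 166 CPM in *nol12-4* and 245, 216 and 224 CPM in WT and did not overlap.

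**Figure D1:**
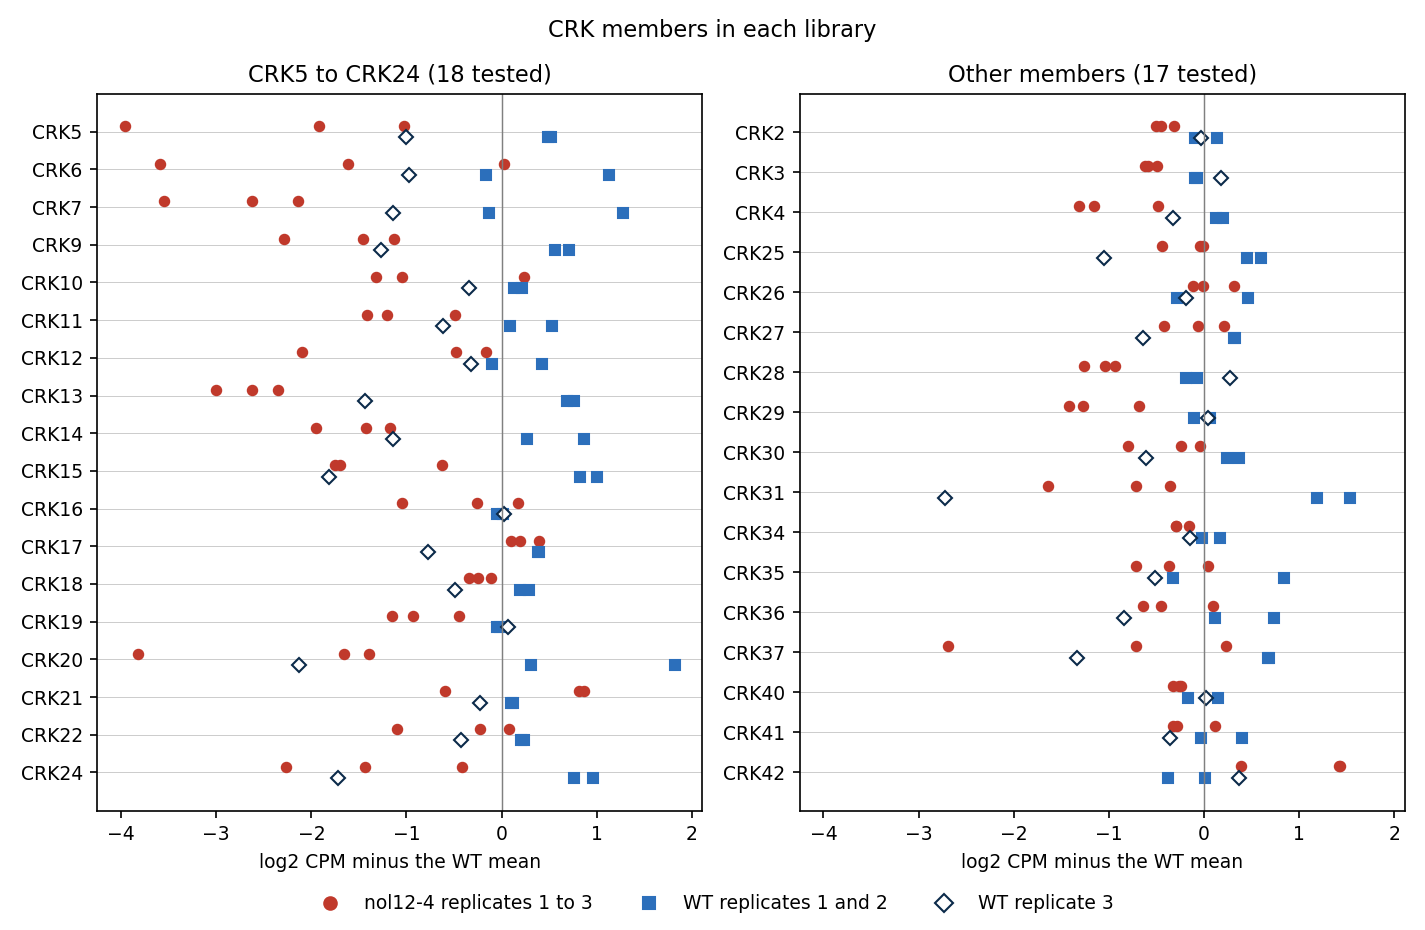
The 35 tested members, one per line, with the difference in log2 CPM from the mean of the WT libraries on the horizontal axis, for the tandem array on the left and the other members on the right. Circles are the 3 *nol12-4* libraries, filled squares WT replicates 1 and 2, and open diamonds WT replicate 3, which is the lowest WT library for 26 of the 35 members.

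Among the 18 tested members of the array, 16 had an estimate below 0, with a median of −1.27. The 17 tested members elsewhere had a median of −0.43, and 15 of them were below 0. Leaving out 1 library moved the median of the array between −1.87 (without WT replicate 3) and −0.94 (without WT replicate 2), and that of the other members between −0.64 (without WT replicate 3) and −0.21 (without WT replicate 1). DESeq2 called 8 of 20 members lower in the array and 3 of 20 outside it (3.21% of all genes). The array thus had the lower median and the larger number of calls. The order was reversed for separation of the libraries. All *nol12-4* libraries lay below all WT libraries for 5 of 18 tested array members and 7 of 17 others (11.6% of all genes). No test of the difference between these parts of the family was made, because the genes of a part vary together across libraries.

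**Figure D2:**
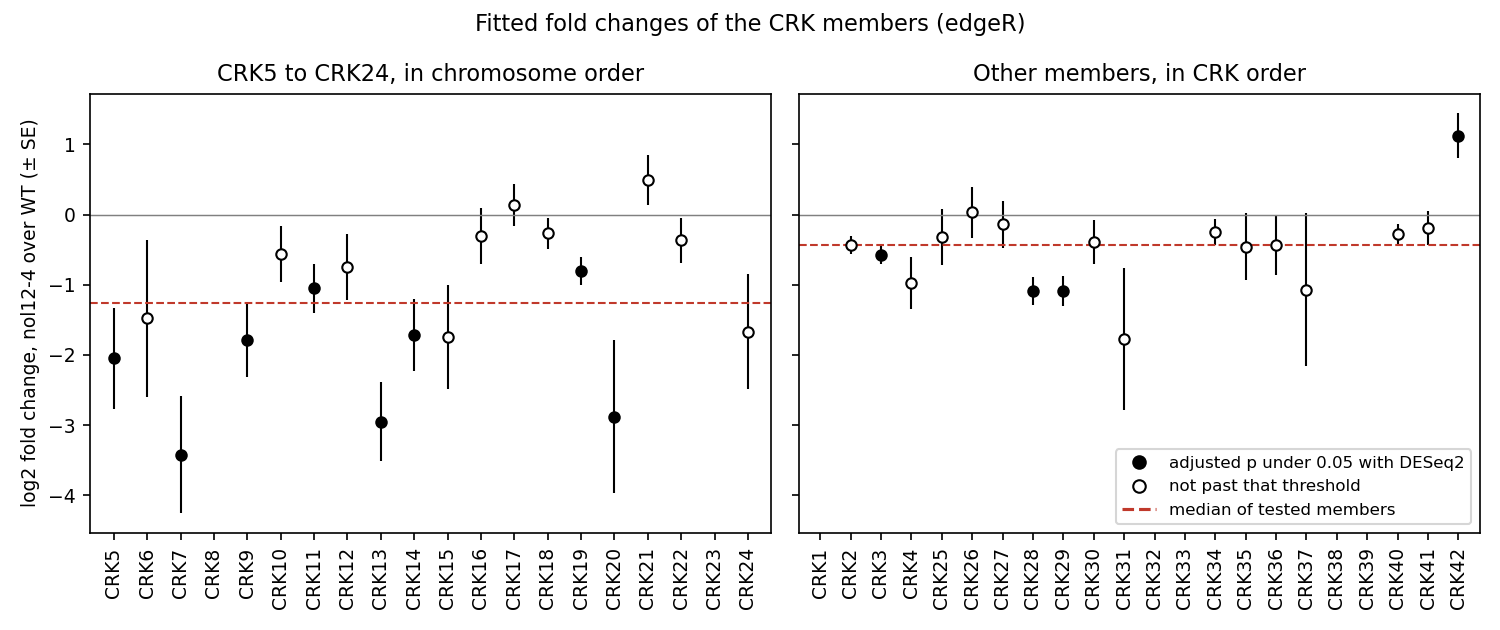
log2 fold change of each member, *nol12-4* over WT, from edgeR with its standard error, in chromosome order for *CRK5* to *CRK24* on the left and in order of CRK number for the other members on the right. Filled points passed an adjusted p of 0.05 with DESeq2, names without a point were not tested, and the dashed lines at −1.27 and −0.43 are the medians.

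The member with the lowest estimate was *CRK7* (AT4G23150), which has been linked to responses to extracellular reactive oxygen species. It had 2, 7 and 6 counts in *nol12-4* and 111, 38 and 18 counts in WT, or 0.0272, 0.12 and 0.0776 CPM in *nol12-4* and 1.56, 0.569 and 0.268 CPM in WT. The genotypes did not overlap, but the *nol12-4* libraries held so few counts that 1 of them was under the floor of 3. The log2 fold change was −3.42 (standard error 0.83), with an adjusted p of 0.095 from edgeR and 0.00155 from DESeq2.

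*CRK13* (AT4G23210), whose overexpression causes salicylic acid accumulation and resistance to *Pseudomonas syringae*, had the lowest estimate of the better-expressed members. It stood at 1.59, 1.01 and 1.32 CPM in *nol12-4*, against 13.3, 14.0 and 3.01 CPM in WT. WT replicates 1 and 2 were alike and WT replicate 3 was lower by up to 4.64 times, yet still above every *nol12-4* library. The log2 fold change was −2.95 (standard error 0.56), and the adjusted p was 0.0683 from edgeR and 2.11e-06 from DESeq2. Without WT replicate 3, edgeR called it, at −3.38 on the log2 scale (adjusted p = 0.00715).

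*CRK20* (AT4G23280), whose transcript is induced by pathogens and whose overproduction leads to cell death, had 13, 1 and 17 counts in *nol12-4* and 161, 52 and 8 counts in WT. WT replicate 3 lay between *nol12-4* replicates, so the genotypes overlapped. The log2 fold change was −2.88 (standard error 1.09), with an adjusted p of 0.205 from edgeR and 0.0422 from DESeq2. With WT replicate 3 or *nol12-4* replicate 3 left out, DESeq2 still called it (0.00117 and 0.0301), but it lost the call without any of the other 4 libraries (0.104 to 0.546).

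A low WT replicate 3 was also seen in *CRK5*, *CRK9*, *CRK14* and *CRK11*, all in the array. *CRK5* (AT4G23130), another kinase whose overproduction triggers cell death, had 2.46, 1.32 and 0.297 CPM in *nol12-4* and 7.27, 7.11 and 2.51 CPM in WT. *CRK9* (AT4G23170), annotated only as a receptor-like protein kinase-related protein and with 798 coding bases, far shorter than its neighbors, had 2.68, 1.49 and 3.36 CPM in *nol12-4* and 12.1, 10.9 and 3.06 CPM in WT. *CRK14* (AT4G23220) had 1.21, 0.837 and 1.46 CPM in *nol12-4* and 6.07, 4.01 and 1.49 CPM in WT. In these 3 genes WT replicate 3 sat at the top edge of the *nol12-4* libraries or among them. Their log2 fold changes were −2.05, −1.79 and −1.72 (standard errors 0.72, 0.53 and 0.51), and DESeq2 gave adjusted p-values of 0.025, 0.00871 and 0.0108 and edgeR 0.18, 0.137 and 0.134. Without WT replicate 3, edgeR called *CRK9* (adjusted p = 0.0326) and *CRK14* (0.0344).

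*CRK11* (AT4G23190), a kinase gene induced by pathogens, salicylic acid and reactive oxygen species, was expressed at a much higher level. It had 12.9, 11.1 and 21.2 CPM in *nol12-4* and 43.0, 31.7 and 19.3 CPM in WT, and WT replicate 3 lay below *nol12-4* replicate 3. The log2 fold change was −1.05 (standard error 0.35), with an adjusted p of 0.161 from edgeR and 0.039 from DESeq2. Its neighbor *CRK10*, which is transcribed toward it, stood at 14.6, 12.1 and 35.7 CPM in *nol12-4* and 35.1, 33.1 and 23.8 CPM in WT. Here *nol12-4* replicate 3 was the highest of all 6 libraries, and the estimate of −0.56 (standard error 0.40) was not called unless that library was left out, when edgeR gave an adjusted p of 0.0265.

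**Figure D3:**
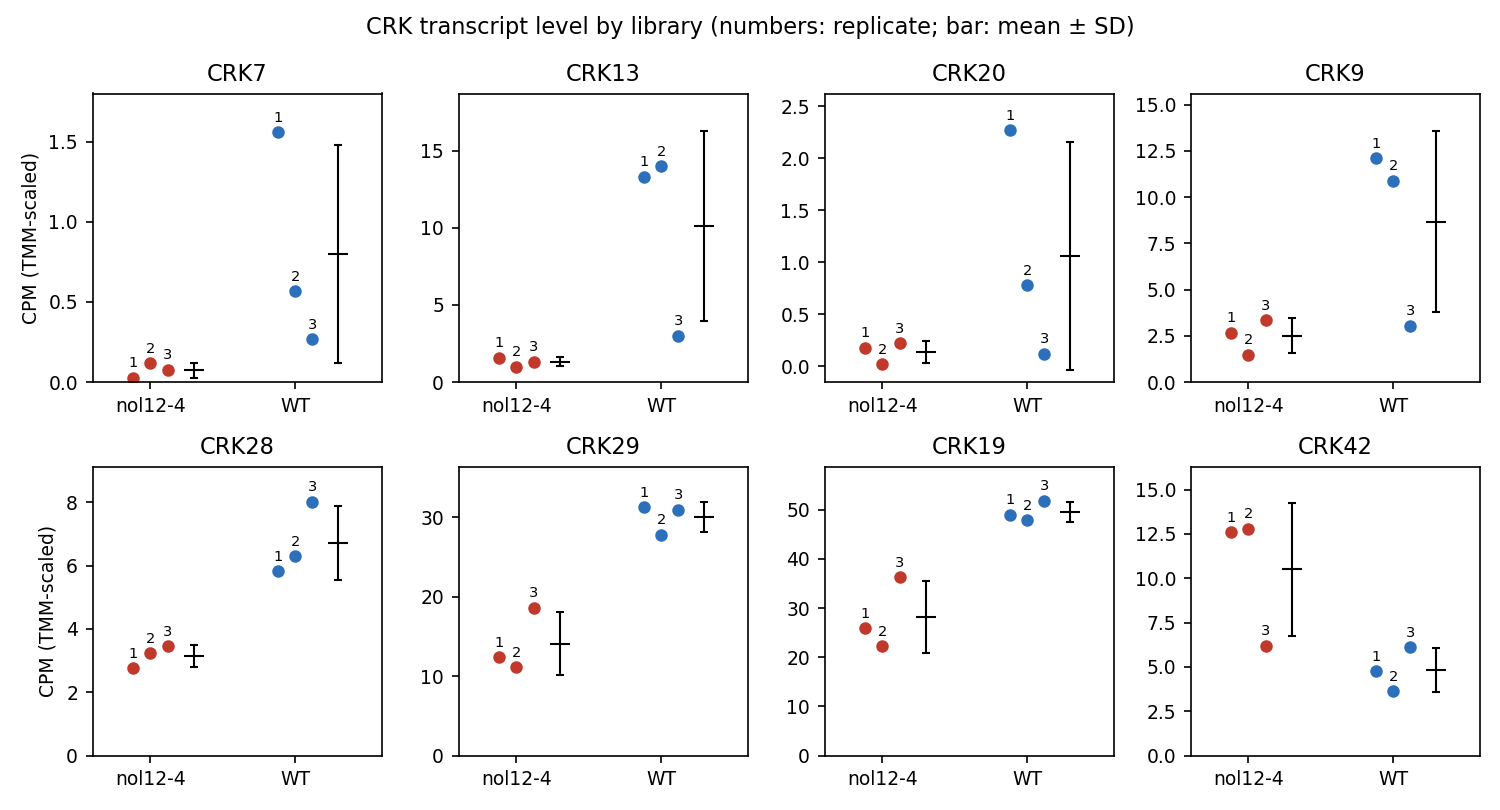
TMM-scaled CPM in each library for 8 members, with *nol12-4* on the left and WT on the right of each panel, replicate numbers above the points and the mean ± SD (n = 3) beside them. In *CRK7*, *CRK13*, *CRK20* and *CRK9* WT replicate 3 is near the *nol12-4* libraries, while in *CRK28*, *CRK29* and *CRK19* the 3 WT libraries lie together above all *nol12-4* libraries.

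A second group of members with estimates below 0 had WT libraries that agreed closely. *CRK28* (AT4G21400), which associates with the co-receptor BAK1, averaged 3.15 ± 0.355 CPM in *nol12-4* and 6.71 ± 1.16 CPM in WT (SD, n = 3 each). The single libraries stood at 2.76, 3.23 and 3.45 CPM in *nol12-4* and 5.82, 6.30 and 8.02 CPM in WT, with WT replicate 3 the highest. *CRK29* (AT4G21410), the neighboring gene, had 12.4, 11.1 and 18.6 CPM in *nol12-4* and 31.2, 27.8 and 30.9 CPM in WT. Both were 2.13-fold lower in *nol12-4*, with a log2 fold change of −1.09 and standard errors of 0.20 (*CRK28*) and 0.21 (*CRK29*) by edgeR. The adjusted p-values were 0.0663 (*CRK28*) and 0.0693 (*CRK29*) from edgeR and 0.000225 (*CRK28*) and 0.000467 (*CRK29*) from DESeq2. Together with *CRK13*, these were the only members that DESeq2 called whichever library was left out.

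The genes of this pair are 86.9% identical in their coding sequence and overlap by 470 exonic bases on the same strand in the RefSeq annotation. Read pairs that fall in such an overlap are ambiguous for htseq-count, so the counts of both genes are uncertain. Only 0.19% of the 75-base windows of either gene occurred elsewhere in the genome without a mismatch. How the annotation used for counting drew this overlap was not tested.

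*CRK19* (AT4G23270), whose overproduction also leads to cell death, is an array member with even WT values. It had 25.9, 22.2 and 36.3 CPM in *nol12-4* and 49.0, 47.9 and 51.8 CPM in WT, without overlap. The log2 fold change was −0.81 (standard error 0.20), and the adjusted p was 0.0925 from edgeR and 0.00847 from DESeq2. Its closest relative and neighbor is *CRK20*, with 90.2% coding identity, but the WT values of *CRK20* spread 19-fold where those of *CRK19* spread 1.08-fold. No 75-base window of *CRK19* and 0.38% of those of *CRK20* occurred elsewhere in the genome.

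*CRK3* (AT1G70530) had 38.9, 38.3 and 41.9 CPM in *nol12-4* and 55.9, 54.7 and 66.4 CPM in WT, without overlap. Its estimate of −0.57 (standard error 0.14) had an adjusted p of 0.0925 from edgeR and 0.0109 from DESeq2. Its neighbor *CRK2* (AT1G70520), which phosphorylates RBOHD, had 41.3, 37.8 and 36.5 CPM in *nol12-4* and 56.9, 48.1 and 50.3 CPM in WT. *CRK2* did not overlap either, and both genes were among the most abundant members. The change of *CRK2*, −0.43 (standard error 0.13), was past the threshold with neither tool (0.149 from edgeR, 0.068 from DESeq2).

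The remaining members whose libraries did not overlap were *CRK4*, *CRK34* and *CRK40*. *CRK4* (AT3G45860), a kinase that binds the flagellin receptor FLS2, had an estimate of −0.98 (standard error 0.37). *CRK34* and *CRK40* had estimates of −0.25 (standard error 0.18) and −0.28 (standard error 0.14). None of these 3 was called by either tool with all 6 libraries.

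*CRK42* (AT5G40380), the only member on chromosome 5, was the single one that DESeq2 called higher. It stood at 12.6, 12.8 and 6.21 CPM in *nol12-4* and 4.75, 3.62 and 6.13 CPM in WT. The genotypes were separated only narrowly, between *nol12-4* replicate 3 and WT replicate 3. The log2 fold change was 1.12 (standard error 0.32), with an adjusted p of 0.13 from edgeR and 0.0258 from DESeq2. Without *nol12-4* replicate 3 edgeR called it too (1.39, adjusted p = 0.0252), while DESeq2 lost it when replicate 1 or 2 of either genotype was left out (0.146 to 0.232).

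The other estimates above 0 were those of *CRK21*, *CRK17* and *CRK26*. *CRK21* (AT4G23290) had 40.2, 38.7 and 14.5 CPM in *nol12-4* and 23.7, 24.0 and 18.8 CPM in WT, so that *nol12-4* replicate 3 was the lowest library of all. Its estimate was 0.49 (standard error 0.36), with an edgeR adjusted p of 0.479, and it was called only without that library (0.0315 from edgeR). *CRK17* (AT4G23250), annotated in RefSeq as *EMB1290*, had 17.6, 15.4 and 14.5 CPM in *nol12-4* and 17.6, 17.6 and 7.89 CPM in WT. The estimate of 0.14 (standard error 0.30) became −0.16 without WT replicate 3. *CRK17* overlaps *CRK16* by 776 exonic bases on the same strand, 24.9% of its own and 38.2% of those of *CRK16*, so the counts of both are uncertain. *CRK26* was at 0.031 (standard error 0.36).

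Members also differed widely in level. Per kilobase of exon, *CRK18* was the most abundant, with 19.0 CPM per kb in *nol12-4* and 23.0 in WT, followed in WT by *CRK2* (16.0 in *nol12-4* and 21.5 in WT), *CRK3* (13.8 in *nol12-4* and 20.6 in WT) and *CRK19* (10.8 in *nol12-4* and 18.9 in WT). *CRK18* had 45.7, 39.0 and 41.6 CPM in *nol12-4* and 56.6, 60.6 and 35.3 CPM in WT, so its first place in WT rested on replicates 1 and 2. At the other end, 11 members, from *CRK7* downward, were at or under 0.358 CPM per kb in WT, *CRK1* and *CRK33* without a count among them.

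**Figure D4:**
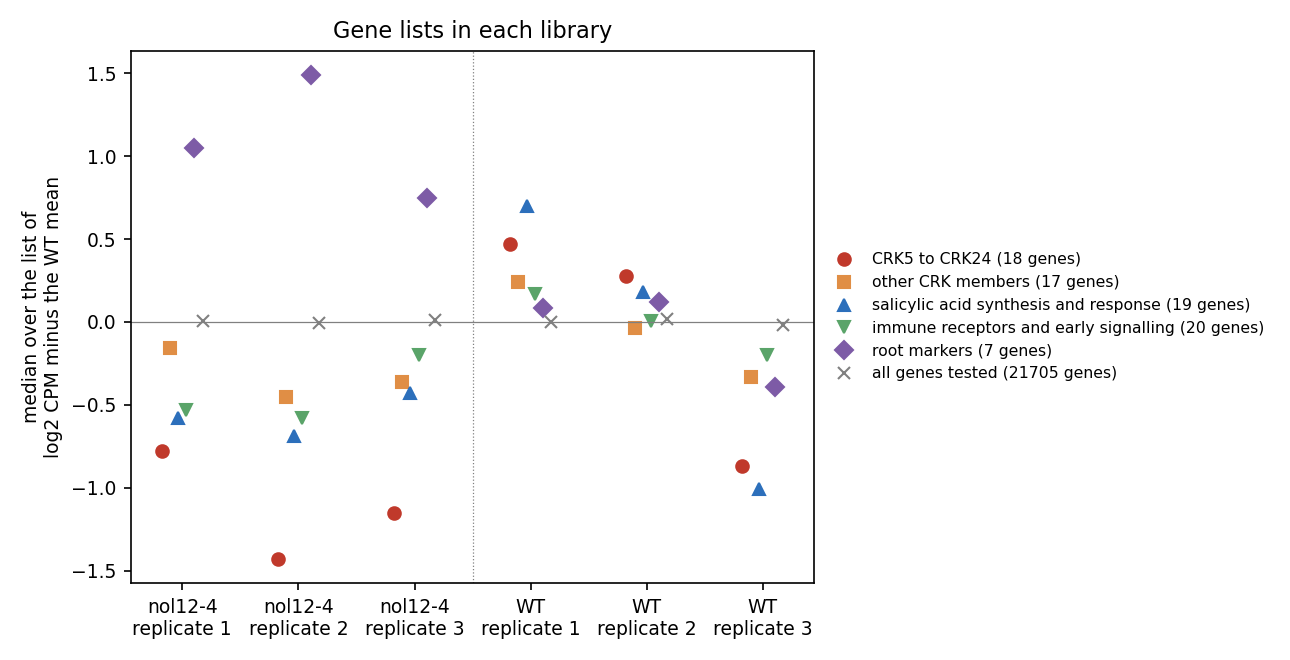
Median over each gene list of log2 CPM minus the WT mean, for the 3 *nol12-4* libraries on the left and the 3 WT libraries on the right. Both groups of CRK members, the salicylic acid genes and the immune receptor genes are below 0 in all *nol12-4* libraries and also in WT replicate 3 (−0.87 for *CRK5* to *CRK24*, −0.33 for other members, −1.01 and −0.20 for these lists), while all genes tested stay near 0.

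The spread among the WT libraries was wide in the CRK family. The range of log2 CPM over the 3 WT libraries had a median of 0.97 over the tested members, against 0.50 over all genes, and it exceeded 1 log2 unit in 16 of 35 members (45.7%, against 21.9% of all genes). In *nol12-4* the median range was 0.78 over the members and 0.50 over all genes. The array varied most, with medians of 1.20 in *nol12-4* and 1.34 in WT, and the other members had 0.63 in *nol12-4* and 0.75 in WT. Restricted to members with a mean count of 100 or more, the median WT range was still 0.97 in the array and 0.61 elsewhere, against 0.42 over all such genes. The *nol12-4* range of these genes was 1.05 in the array and 0.44 elsewhere, against 0.44 over all such genes. Among these better-counted array members the spread was thus not wider in WT than in *nol12-4*. A wide WT spread was not particular to the CRKs. In the comparison lists below, the median WT range was 1.83 for salicylic acid genes and 0.75 for the lectin list. That of the immune receptor genes, 0.49, was not wide beside the 0.50 of all genes.

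WT replicate 3 carried most of this spread. It was the lowest WT library for 16 of 18 members of the array (88.9%) and 10 of 17 others (58.8%), against 44.4% of all genes. Between WT replicates 1 and 2 the median difference was 0.12 in the array and 0.19 in the other members, against 0.17 over all genes. With WT replicate 1 or 2 left out instead, the median range of the remaining pair was 1.08 or 1.15 in the array, 0.35 or 0.65 in the other members and 0.39 or 0.36 over all genes. WT replicate 3 thus stood apart from the other WT libraries over all genes as well, with a wider gap in the array. WT replicate 3 was at or below the highest *nol12-4* library for 13 of 18 array members (72.2%) and 10 of 17 others (58.8%). The share of all genes was 67.5%. Of all genes 51% had an estimate below 0, against 31 of the 35 members, so these shares are not like for like.

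The 3 widest WT ranges belonged to *CRK31*, *CRK20* and *CRK15*, at 4.24, 3.95 and 2.81 log2 units. *CRK31* (AT4G11470) had 7, 12 and 21 counts in *nol12-4* and 77, 57 and 2 counts in WT. *CRK15* (AT4G23230) had 50, 18 and 23 counts in *nol12-4* and 135, 144 and 19 counts in WT. After scaling, WT replicate 3 lay just under the lowest *nol12-4* library in *CRK15* and well below all of them in *CRK31*. Their estimates, −1.77 (standard error 1.01) and −1.75 (standard error 0.74), were not called by edgeR or DESeq2 with all 6 libraries, and DESeq2 called both once WT replicate 3 was left out.

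The number of members called therefore moved with single libraries. DESeq2 called 16 members lower without WT replicate 3 (4.74% of all genes) and 13 without *nol12-4* replicate 3 (6.73%). Of the other *nol12-4* libraries, leaving out replicate 1 gave 5 (1.42%) and replicate 2 gave 4 (1.24%). Of the other WT libraries, leaving out replicate 1 gave 3 (0.859%) and replicate 2 gave 6 (1.9%). edgeR called *CRK9*, *CRK13* and *CRK14* lower without WT replicate 3 (1.28% of all genes) and 0 members higher (0.812%). Without *nol12-4* replicate 3 it called *CRK10*, *CRK19*, *CRK28* and *CRK29* lower (2.73%) and *CRK21* and *CRK42* higher (4.71%). With any other library left out edgeR called 0 members and 0 genes, with 8 to 13 members lower at an unadjusted p under 0.05.

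The members too low to test with edgeR were read from their counts. DESeq2 gave those with any count an adjusted p, from 0.189 (*CRK23*) to 0.943 (*CRK38*), and called none of them. *CRK23* had no count in *nol12-4* and 1, 7 and 5 in WT. With the *nol12-4* group set to 3 counts in all, it was at least 4.43-fold lower. This limit takes the WT counts as they stand and leaves out their error. The DESeq2 estimate for it was −4.61 (standard error 2.2). *CRK8* had 2, 1 and 9 counts in *nol12-4* and 23, 14 and 5 in WT, *CRK32* had 1, 2 and 2 in *nol12-4* and 11, 7 and 0 in WT, and *CRK39* had 9, 5 and 1 in *nol12-4* and 23, 17 and 1 in WT. *CRK38* had 18, 0 and 0 counts in *nol12-4* and 11, 1 and 1 in WT. In *CRK8*, *CRK32* and *CRK39* WT replicates 1 and 2 held most of the WT counts. Of the windows of *CRK8* and *CRK6*, 12.2% and 15.05% occurred elsewhere in the genome, the largest shares in the family, so their counts are uncertain.

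The other tested members were called by neither tool with all 6 libraries. In the array these were *CRK6*, *CRK12*, *CRK16*, *CRK18*, *CRK22* and *CRK24*, with estimates from −1.67 (*CRK24*) to −0.27 (*CRK18*). Outside it they were *CRK25*, *CRK27*, *CRK30*, *CRK35*, *CRK36*, *CRK37* and *CRK41*, from −1.07 (*CRK37*, standard error 1.09) to −0.14 (*CRK27*, standard error 0.33). *CRK36*, which interacts with the immune kinase BIK1, had 1.93, 1.69 and 2.82 CPM in *nol12-4* and 4.42, 2.86 and 1.46 CPM in WT, again with a low WT replicate 3. *CRK35* (AT4G11500) is annotated in RefSeq as a transcribed pseudogene.

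Regions upstream of the members were examined for TTGAC, the core of the W-box bound by WRKY transcription factors, since many CRK genes are known as targets of pathogen and salicylic acid signals. In the 250 bases before the annotated start, TTGAC on either strand was found in 31 of 42 members (73.8%) and in 44.9% of 27443 nuclear protein-coding genes. It occurred in 15 of 20 array members (75%) and 16 of 22 others (72.7%). The longer forms TTGACC or TTGACT, which contain it, were found in 27 members (64.3%) and in 28.4% of all genes. Neighboring copies share ancestry, so the members are not independent of each other.

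The upstream sequences of 5 array members with estimates below 0, from the most matches to the fewest, are shown (RefSeq, TAIR10.1, 5′ to 3′ on the strand of the gene), with TTGAC or its reverse complement GTCAA in capitals. *CRK11* has the most matches, 6, *CRK5* has 3 and *CRK20* 2, while *CRK7* and *CRK13*, with the lowest estimates, have 1 and 0.
CRK11, chr4:12143859-12144108, minus strand: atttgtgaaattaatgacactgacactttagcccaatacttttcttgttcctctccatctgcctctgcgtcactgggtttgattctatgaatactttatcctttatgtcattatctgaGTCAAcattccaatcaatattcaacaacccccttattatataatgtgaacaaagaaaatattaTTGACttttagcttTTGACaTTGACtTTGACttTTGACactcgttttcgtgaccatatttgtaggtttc
CRK5, chr4:12120221-12120470, minus strand: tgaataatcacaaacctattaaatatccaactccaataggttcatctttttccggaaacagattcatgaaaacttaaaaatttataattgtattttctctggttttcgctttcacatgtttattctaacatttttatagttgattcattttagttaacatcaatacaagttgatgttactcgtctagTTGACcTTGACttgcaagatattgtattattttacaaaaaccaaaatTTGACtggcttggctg
CRK20, chr4:12174483-12174732, plus strand: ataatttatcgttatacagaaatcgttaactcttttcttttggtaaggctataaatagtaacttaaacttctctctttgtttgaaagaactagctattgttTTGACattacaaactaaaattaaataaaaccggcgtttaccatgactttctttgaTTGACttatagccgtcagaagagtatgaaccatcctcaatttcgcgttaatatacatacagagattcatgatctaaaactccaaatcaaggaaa
CRK7, chr4:12125414-12125663, plus strand: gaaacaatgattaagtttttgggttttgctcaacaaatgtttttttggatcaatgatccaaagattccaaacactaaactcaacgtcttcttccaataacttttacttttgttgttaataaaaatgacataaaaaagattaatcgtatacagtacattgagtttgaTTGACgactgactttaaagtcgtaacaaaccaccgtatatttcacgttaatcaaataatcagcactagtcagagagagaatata
CRK13, chr4:12151639-12151888, minus strand: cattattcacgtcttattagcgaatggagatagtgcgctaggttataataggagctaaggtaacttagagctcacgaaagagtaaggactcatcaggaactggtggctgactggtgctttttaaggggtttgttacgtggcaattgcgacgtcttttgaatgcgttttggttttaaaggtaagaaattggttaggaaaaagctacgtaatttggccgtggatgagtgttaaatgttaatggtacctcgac

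Tested members with TTGAC in this window (25) had a median log2 fold change of −0.98 and a median WT range of 1.34, and DESeq2 called 7 of them lower. The 10 without it had a median of −0.50 and a WT range of 0.41, and 4 of them were called lower, namely *CRK13*, *CRK19*, *CRK28* and *CRK3*. A match is only a run of letters, and its absence says only that these letters are not in this window. For 9 members the window overlaps another annotated gene, *CRK28* and *CRK29* among them.

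Genes that act with CRKs in immunity were read from lists for comparison. Of 20 immune receptor and early signaling genes, 18 had an estimate below 0, with a median of −0.47. edgeR called 0 of them after adjustment and gave 8 lower at an unadjusted p under 0.05 (7.91% of all genes). DESeq2 called 4 of the 20 lower (3.21% of all genes). They were *CERK1*, the chitin receptor kinase, *BIK1*, *BIR1*, a negative regulator that binds BAK1, and *XLG2*, an extra-large G protein. *BIR1* averaged 33.1 ± 13.6 CPM in *nol12-4* and 66.1 ± 12.4 CPM in WT (SD, 3 libraries each, DESeq2 adjusted p = 0.0227), and *BAK1* had a log2 fold change of −0.58 (standard error 0.20, DESeq2 adjusted p = 0.0919). *RBOHD*, the oxidase that CRK2 phosphorylates, averaged 41.2 ± 13.5 CPM in *nol12-4* and 35.4 ± 13.8 CPM in WT (SD, n = 3 each), a difference smaller than the SD within either genotype.

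Of 20 genes of salicylic acid synthesis and response, edgeR tested 19, all but *NIMIN1*. Of these, 17 had an estimate below 0, and the median was −0.72. The 2 estimates above 0 were those of the response genes *PR5* (0.44, standard error 0.34) and *PR1* (0.12, standard error 1.12). Neither tool called these 2 genes. 7 were lower by edgeR at an unadjusted p under 0.05 (7.91% of all genes) and 0 after adjustment. DESeq2 called 4 of the 20 lower (3.21% of all genes): *SAG101*, *NIMIN1*, *NIMIN2* and *WRKY54*. *NIMIN1* had 1, 1 and 9 counts in *nol12-4* and 144, 126 and 5 counts in WT, so the genotypes overlapped. *WRKY54*, a WRKY factor of salicylic acid signaling, had 60, 60 and 93 counts in *nol12-4* and 529, 386 and 116 counts in WT, with WT replicate 3 the lowest of the WT libraries. Set against the mean of WT, this list had library medians of −0.58, −0.69 and −0.43 in *nol12-4* and 0.70, 0.18 and −1.01 in WT. Those of the array were −0.78, −1.43 and −1.15 in *nol12-4* and 0.47, 0.28 and −0.87 in WT. In both, WT replicate 3 was the low WT library. The lists share these 6 libraries, and no further comparison of them was made.

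Other receptor families did not all show the same median. Of 69 tested kinases with "lectin" in their annotation, a search that also caught malectin-like kinases, 50 were below 0 (median −0.39). DESeq2 called 14 of 78 lower (3.21% of all genes) and 2 higher (6.2% of all genes). Of 59 other genes annotated as receptor-like kinases or related to them, 31 were below 0 (median −0.053). A few of these genes are also in the immune receptor and PDLP lists. DESeq2 called 6 of 66 lower (3.21% of all genes) and 5 higher (6.2% of all genes). The plasmodesmal PDLP proteins, which share the DUF26 domain with CRKs but lack a kinase domain, had 7 of 8 estimates above 0 (median 0.33). DESeq2 called 1 of the 8 higher (6.2% of all genes), *PDLP2* (0.94, standard error 0.30, adjusted p = 0.0493). edgeR called 0 genes in each of these 3 lists. At an unadjusted p under 0.05, 20, 13 and 0 were lower (7.91% of all genes) and 3, 9 and 2 higher (12.1% of all genes). The 28 genes annotated as cysteine-rich repeat secretory proteins, which have DUF26 domains, had too few counts to be tested. Secreted DUF26 proteins annotated in other words are not among these 28 and were not sorted from the receptor-like kinase list.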

How the data were processed

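Libraries of total RNA depleted of rRNA were sequenced as stranded paired ends. Per the labels and the study's methods, the authors aligned the reads to TAIR10 with HISAT2 (version 2.0.4) and obtained strand-specific read pair counts for Araport11 genes from htseq-count (HTSeq version 0.6.0). The deposited values are raw counts per gene for 37184 identifiers, 1 file per library. The summary lines of htseq-count, 20.6 to 25% of a library, entered neither library sizes nor tests; 10.3 to 12.1% were read pairs aligned to more than 1 place.

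Differences between genotypes were estimated on the counts of all genes with edgeR (version 4.0.16, under R version 4.3.3): TMM factors, filterByExpr, glmQLFit with robust estimation and glmQLFTest, two-sided, genotype as the only term, Benjamini-Hochberg adjustment over 21705 genes, threshold 0.05. The standard error is the size of the log2 fold change divided by the square root of F. Other settings were limma-voom (from limma version 3.58.1), DESeq2 (version 1.42.0), other scaling factors and filters, a replicate block and leaving out each library. DESeq2 with a library left out or with the block was added after seeing the data. The edgeR procedure was tested on simulated counts. These were drawn independently for each gene, so the simulation does not cover shifts that many genes of a library share. Values per library are TMM-scaled CPM, or log2 CPM with a prior count of 2.

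Members called by edgeR or DESeq2, the 3 highest, the 3 lowest and the 3 with the widest WT range were given in every library; of the comparison lists, at most the 2 highest and 2 lowest genes and those called were named. *CRK2*, *CRK10*, *CRK18*, *CRK36*, *BAK1* and the members too low to test were added after their values were seen. The members and lists were chosen with earlier results of these data known. Coordinates and sequences come from the RefSeq annotation of TAIR10.1; coding identity was read from global alignments and shared stretches from exact 75-base windows of exons. P-values set the genotype difference against the spread between 3 biological replicates per genotype, which the tools estimate partly from other genes.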

Additional observations from a re-analysis of the deposited data

How the results depend on the processing

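Scaling, filtering and testing choices left the direction of the family in place: the median of the tested members lay between −0.79 and −0.47 over 16 alternatives. The calls depended on the tool and on single libraries. Members called lower numbered 0 with edgeR, 11 with DESeq2, 1 (*CRK13*) with library size alone and 8 with DESeq2 and a replicate block, and 0 to 4 with edgeR and a library left out. DESeq2 without WT replicate 1, 2 or 3 gave 3, 6 and 16, and without *nol12-4* replicate 1, 2 or 3 gave 5, 4 and 13. Members called higher numbered 0 with edgeR, 1 with DESeq2 and 0 to 2 with a library left out. At an unadjusted p under 0.05, 14 members were lower, and 8 (without WT replicate 1) to 22 (without WT replicate 3) with a library left out. The median of the array was −1.27, and −1.87 to −0.94 with a library left out, and that of the other members −0.43, and −0.64 to −0.21; the median WT range of 0.97 was 0.17 to 0.80. Over all genes, 15 were called lower and 49 higher by edgeR. These were 776 and 1498 with DESeq2, 51 and 376 with library size alone, 41 and 142 without a filter, 0 and 1 with the replicate block, and 0 to 601 and 0 to 1038 with a library left out. Whether libraries of the same replicate number belong together is not given in the sources used here. Deviations of same-numbered libraries correlated at 0.16, −0.11 and 0.035 across genes, and not every library correlated best with its own number. With 3 libraries a group, such values cannot show whether the libraries are paired. With the block edgeR called 0 members. *CRK17*, *CRK26*, *CRK27*, *CRK35* and *CRK41*, all within 1 standard error of 0, changed sign in 1 to 3 of the alternatives. With 3 libraries a group, and fewer than 3 counts in single *nol12-4* libraries of *CRK7* and *CRK20*, the size of their change is poorly determined. The causes of these differences were not tested.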
